A study of Homo sapiens with 12 samples.

Results

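The histone deacetylase genes HDAC1, HDAC3 and HDAC4 were followed across 4 treatments of A2058, an established human melanoma cell line. The members were all probe sets of the deposited value table annotated to these 3 genes: 4 probe sets of 29396, namely 16662077 for HDAC1, 17000900 for HDAC3, and 16910020 and 16910074 for HDAC4. The 12 arrays were 3 each of DMSO, the solvent control; dabrafenib at 100 nM plus trametinib at 10 nM, a RAF kinase inhibitor with a MEK inhibitor (DT); entinostat at 1 µM, an inhibitor of class I histone deacetylases (E); and all 3 drugs at those doses (DTE), in each case for 24 h. All groups were the same cell line, so the results describe a single line, and RNA came from bulk cultures. Sample titles speak of biological replicates but the series design of technical triplicates, and the p-values therefore measure only the spread between these arrays.

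Histone deacetylases remove acetyl groups from lysines of histones and of other proteins, and histone acetyltransferases put them on. HDAC1 and HDAC3 are class I enzymes and are direct targets of entinostat; HDAC1 is a catalytic subunit of the NuRD, SIN3, CoREST and MiDAC corepressor complexes, whereas HDAC3 is the catalytic subunit of NCoR complexes. HDAC4 is a class IIa enzyme with little deacetylase activity of its own. It binds MEF2 transcription factors and HDAC3-containing corepressors, and it moves between nucleus and cytoplasm when kinases such as CaMK, protein kinase D and the salt-inducible kinases phosphorylate it and 14-3-3 proteins bind it. Entinostat acts on enzyme activity, so the RNA values below are not a measure of whether the drug reached its target.

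In these cells the 4 probe sets fell into 3 patterns. As deposited, HDAC1 and HDAC3 were highest with entinostat and lowest with dabrafenib plus trametinib, by small amounts that depended on how the arrays were scaled. The order did not hold after quantile normalization. There HDAC1 stood at 0.00 in DT against DMSO, and HDAC3 at 0.21 in E and 0.25 in DTE. HDAC4 probe set 16910020 fell with dabrafenib plus trametinib, by 1.76-fold alone and 2.15-fold with all 3 drugs. HDAC4 probe set 16910074 fell with entinostat, by 2.36-fold alone and 2.58-fold with all 3 drugs, and did not fall with dabrafenib plus trametinib alone. The log2 difference between the HDAC4 probe sets on the same array moved in opposite directions with the 2 treatments. DT, E and DTE were each compared with the same 3 DMSO arrays, so these comparisons share their controls.

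The HDAC4 probe sets differ in their annotation. Probe set 16910020 carries the coding RefSeq transcript NM_006037, and probe set 16910074 carries NR_026664, a non-coding RefSeq transcript that belongs to the same gene. No source used here places either probe set within the gene, so which exons or introns they read is not stated, and neither is compared in level with the other. In the RefSeq annotation of GRCh38.p14, HDAC1 lies at chr1:32292083-32333626 on the plus strand, HDAC3 at chr5:141620881-141636849 on the minus strand and HDAC4 at chr2:239048168-239401649 on the minus strand. HDAC4 spans 353482 bases and has 11 coding and 4 non-coding RefSeq transcripts, against 41544 bases and 1 coding transcript for HDAC1, and 15969 bases, 4 coding and 6 non-coding transcripts for HDAC3.

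The promoters are shown because HDAC1 and HDAC3 moved together while HDAC4 did not, and because HDAC4 has several starts. Each sequence is the stretch just before a RefSeq start in GRCh38.p14, read 5′ to 3′ on the gene's strand, and capitals mark matches, on either strand, to GGGCGG (the GC box bound by SP factors), CCAAT (the CCAAT box), CACGTG (an E-box), CCGGAA (an ETS core) or TGANTCA (the AP-1 motif). The windows are chr1:32291833-32292082 (plus) for HDAC1, chr5:141636850-141637099 (minus) for HDAC3 and chr2:239401650-239401899 (minus) for the outermost start of HDAC4. The last is chr2:239267515-239267764 (minus), before the innermost of 5 HDAC4 starts.
HDAC1: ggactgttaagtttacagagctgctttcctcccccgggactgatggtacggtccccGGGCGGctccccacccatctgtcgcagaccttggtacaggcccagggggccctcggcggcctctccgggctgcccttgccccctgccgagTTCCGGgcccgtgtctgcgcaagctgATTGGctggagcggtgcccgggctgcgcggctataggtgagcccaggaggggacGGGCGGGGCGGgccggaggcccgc
HDAC3: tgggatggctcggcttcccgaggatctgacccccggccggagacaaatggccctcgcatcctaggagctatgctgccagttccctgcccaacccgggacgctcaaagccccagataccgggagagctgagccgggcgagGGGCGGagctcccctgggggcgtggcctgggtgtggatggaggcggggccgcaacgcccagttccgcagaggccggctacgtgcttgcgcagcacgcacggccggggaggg
HDAC4 outermost start: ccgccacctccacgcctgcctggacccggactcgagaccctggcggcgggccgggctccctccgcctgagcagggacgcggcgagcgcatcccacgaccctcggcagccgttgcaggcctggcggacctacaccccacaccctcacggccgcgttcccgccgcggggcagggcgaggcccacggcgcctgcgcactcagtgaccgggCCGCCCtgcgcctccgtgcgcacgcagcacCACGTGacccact
HDAC4 innermost start: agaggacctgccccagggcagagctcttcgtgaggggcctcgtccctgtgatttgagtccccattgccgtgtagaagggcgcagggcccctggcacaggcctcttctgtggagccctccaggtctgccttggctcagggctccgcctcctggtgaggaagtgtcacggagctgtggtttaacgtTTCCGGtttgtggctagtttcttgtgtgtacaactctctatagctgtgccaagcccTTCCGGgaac

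HDAC1 had 3 GC boxes, of which 2 overlap, with 1 CCAAT box and 1 ETS core, in a window with 21 CpG dinucleotides and 71.6% G and C. HDAC3 had 1 GC box, 22 CpG and 70.8% G and C. The outermost HDAC4 window had 1 GC box, 1 E-box, 33 CpG and 76.8% G and C. For comparison, over the 35116 RefSeq promoter windows of this length the quartiles of the CpG count were 3, 11 and 23, so HDAC4 lay above the upper quartile and HDAC1 and HDAC3 just below it. GGGCGG was present in 42.6% of all windows, CCAAT in 32.0%, CCGGAA in 14.5%, TGANTCA in 6.57% and CACGTG in 6.34%. The 4 inner HDAC4 starts lie 103.119, 126.868, 128.022 and 134.135 kb into the gene and had 4, 2, 8 and 9 CpG, none of them above the median of all windows. The innermost window held 2 ETS cores, the other inner windows none of the 5 motifs, and none of the windows held TGANTCA. These letter matches are a description of the sequence and not of binding.

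The arrays carried the marks of both treatments. Of 12 measured ERK output genes, which report signalling below RAF and MEK, 12 fell in DT, with a median log2 change of -3.40 against -0.13 over all probe sets, of which 17.8% were called lower. Of 8 measured genes known to rise with histone deacetylase inhibitors, 6 rose in E, with a median of 0.75, where 9.57% of all probe sets were called higher. Neither list was specific to its treatment. In DT, CLU and SYT11 of the second list rose by 0.94 and 0.82, and KLF4 and MT1X changed by -0.64 and -0.45. In E, the ERK output genes DUSP5 and IER3 rose by 1.49 and 0.67, and FOSL1 changed by -0.56. The melanocyte lineage list had 8 measured genes with mean log2 intensities of 4.79 to 9.21, and its summed intensity was 1798 to 1911 in DMSO, 2912 to 3399 in DT, 1622 to 1790 in E and 1916 to 2064 in DTE. The summed intensity of the 3 measured fibroblast markers, DCN, LUM and THY1, was 166 to 193 in DMSO, 185 to 246 in DT, 301 to 359 in E and 439 to 600 in DTE, and that of 4 epithelial markers was 75.5 to 99.3, 53.9 to 65.2, 111 to 126 and 68.3 to 80.4. The fibroblast sum was mostly LUM, at a mean log2 intensity of 7.91, beside 5.11 for THY1 and 2.22 for DCN. DCN lay below the lower quartile of all probe sets, 2.52. The part of these marker shifts in the HDAC results was not tested. Array medians also moved with treatment, from 3.68 ± 0.07 log2 units in DT through 3.81 ± 0.05 in DTE and 3.82 ± 0.11 in DMSO to 4.01 ± 0.02 in E (SD, n = 3).

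Because of that drift, the scaling of the arrays bears on every small change. The median log2 change over all probe sets was -0.13 in DT, 0.06 in E and -0.08 in DTE as deposited. It became 0.01, -0.13 and -0.06 when each array was centred on its own median, and 0.00, -0.02 and -0.03 after quantile normalization. The share of called probe sets that were higher moved from 12.4% as deposited to 30.3% after centring and 51.4% after quantile normalization in DT, and from 78.6% to 33.5% and 55.2% in E. In DTE it was 31.6%, 32.4% and 51.6%. HDAC values below are as deposited unless a scaling is named. A change was called where limma's p-value, with Benjamini-Hochberg adjustment across the 29396 probe sets of the table, was under 0.05.

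**Figure D1:**
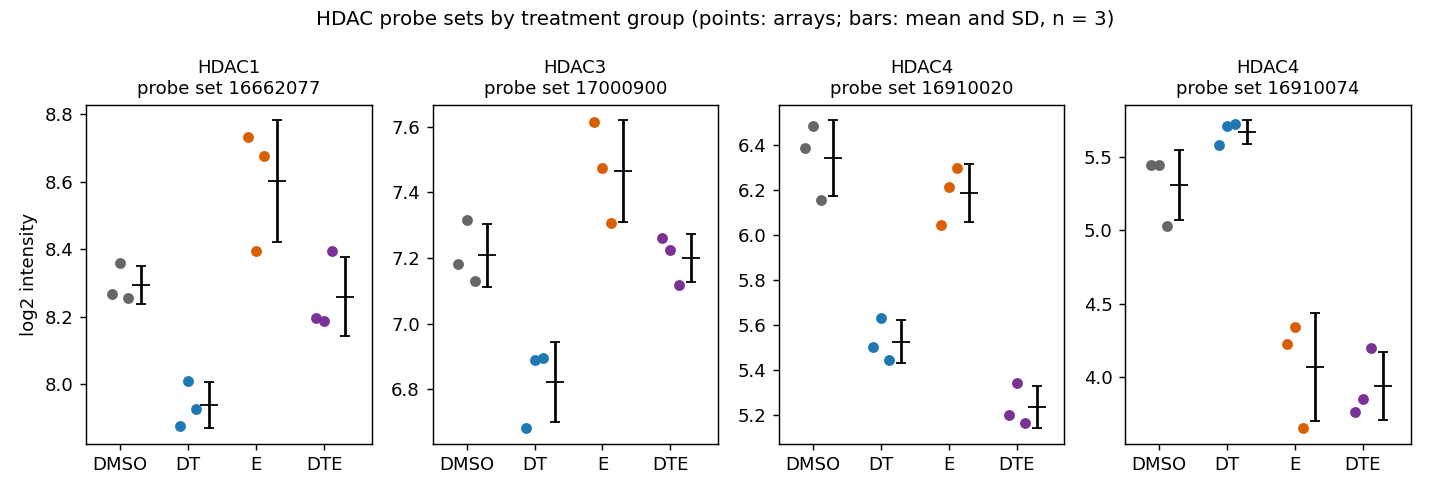
Log2 intensity of the 4 member probe sets on each array (points) by treatment group, with the group mean and SD (bars, n = 3); the vertical scale differs between panels. HDAC1 and HDAC3 share one pattern over the groups, with the lowest arrays in DT, while HDAC4 probe set 16910020 is low in DT and DTE and HDAC4 probe set 16910074 is low in E and DTE.

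HDAC1 was measured at 8.27, 8.36 and 8.26 log2 units on the DMSO arrays and at 7.88, 8.01 and 7.93 on the DT arrays. It was 8.73, 8.40 and 8.68 in E and 8.20, 8.19 and 8.39 in DTE. The DT arrays lay below every other array, the E arrays lay above every other array, the lowest of them barely, and the DTE arrays overlapped DMSO. Of all probe sets, 29.1% had every DT array below every DMSO array and 19.7% every E array above. The means and SDs were 8.60 ± 0.18 in E, 8.29 ± 0.06 in DMSO, 8.26 ± 0.12 in DTE and 7.94 ± 0.07 in DT (n = 3 each). HDAC1 was among the brighter probe sets of the array, at the 95.3rd percentile of mean log2 intensity.

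In that order no pair of neighbouring groups differed by an adjusted p under 0.05. E stood 0.31 above DMSO (SE 0.12, adjusted p = 0.116) and DTE stood 0.32 above DT (SE 0.12, adjusted p = 0.0880). DTE and DMSO differed by -0.03, with a 95% interval of -0.29 to 0.22 (adjusted p = 0.887). The ends of the order did differ: HDAC1 was 1.58-fold higher in E than in DT (log2 change 0.66, SE 0.12, adjusted p = 0.000377), in a comparison where 31.3% of all probe sets were called and 28.7% were called higher. That change was 0.33 after centring and 0.29 after quantile normalization (adjusted p = 0.0481 and 0.0441).

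Against DMSO, HDAC1 fell 1.28-fold in DT as deposited (log2 change -0.36, SE 0.12, adjusted p = 0.0437), where 20.3% of probe sets were called, 17.8% lower and 2.52% higher. The change was -0.21 after centring (adjusted p = 0.274) and 0.00 after quantile normalization (adjusted p = 0.992), so the call ended under both. It also ended without DMSO replicate 1, 2 or 3 (adjusted p = 0.0859, 0.139 and 0.0667), without DT replicate 1 or 3 (0.147 and 0.116), without E replicate 3 (0.0550) and without DTE replicate 2 (0.0536). HDAC1 in E against DMSO and in DTE against E gained a call without E replicate 2 (log2 changes of 0.41 and -0.44, adjusted p = 0.0472 and 0.0262). DTE against E was also called without DTE replicate 3 (-0.41, adjusted p = 0.0401), against -0.34 with all arrays (adjusted p = 0.0572).

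HDAC3 was measured at 7.18, 7.31 and 7.13 log2 units in DMSO and at 6.68, 6.89 and 6.89 in DT. It was 7.61, 7.48 and 7.31 in E and 7.26, 7.22 and 7.12 in DTE. The DT arrays again lay below all others, DTE lay within the DMSO range or just beneath it, and the lowest E array overlapped the highest DMSO array. Means and SDs were 7.47 ± 0.15 in E, 7.21 ± 0.10 in DMSO, 7.20 ± 0.07 in DTE and 6.82 ± 0.12 in DT (n = 3 each), the same order as for HDAC1. Its mean lay at the 87.8th percentile of all probe sets.

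One step of that order passed the test, from DT to DTE, where HDAC3 was 1.30-fold higher with entinostat added (log2 change 0.38, SE 0.12, adjusted p = 0.0417) in a comparison with 14.3% of probe sets called and 10.7% called higher. E against DMSO gave 0.26 (SE 0.12, adjusted p = 0.201), and DTE against DMSO gave -0.01 with a 95% interval of -0.26 to 0.24 (adjusted p = 0.975). E was 1.56-fold above DT (log2 change 0.64, SE 0.12, adjusted p = 0.000493), and centring left 0.31 (adjusted p = 0.0532), while quantile normalization left 0.23 (adjusted p = 0.207).

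HDAC3 fell 1.31-fold in DT against DMSO as deposited (log2 change -0.39, SE 0.12, adjusted p = 0.0288), and the change was -0.24 after centring (adjusted p = 0.185) and -0.02 after quantile normalization (adjusted p = 0.958). That call ended without DMSO replicate 1 or 2 (adjusted p = 0.0614 and 0.119) and without DT replicate 1 or 3 (0.143 and 0.0517). The call in DTE against DT ended without DMSO replicate 1 (0.0566), without DT replicate 1, 2 or 3 (0.181, 0.0547 and 0.0691) and without DTE replicate 1, 2 or 3 (0.107, 0.112 and 0.0537). It also ended after centring (0.25, adjusted p = 0.165) and quantile normalization (0.27, adjusted p = 0.138).

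Taking the 6 arrays with a drug against the 6 without it, here called a main effect, used all 12 arrays at once. The entinostat main effect was 0.31 for HDAC1 (SE 0.08, adjusted p = 0.0119) and 0.32 for HDAC3 (SE 0.08, adjusted p = 0.0109), against 20.9% of probe sets called, 15.4% higher and 5.47% lower. After quantile normalization these were 0.27 (adjusted p = 0.00852) and 0.24 (adjusted p = 0.0481), where 11.7% were called higher, and after centring 0.15 and 0.16 (adjusted p = 0.183 and 0.159), which ended both calls without turning the direction. The dabrafenib and trametinib main effect was -0.35 for HDAC1 (SE 0.08, adjusted p = 0.00428) and -0.33 for HDAC3 (SE 0.08, adjusted p = 0.00671), where 31.7% of probe sets were called and 28.7% were lower. Both calls ended after centring, at -0.18 and -0.15 (adjusted p = 0.142 and 0.187), and after quantile normalization they stood at -0.02 and 0.01 (adjusted p = 0.914 and 0.961).

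No difference between the changes of HDAC1 and HDAC3 passed a test. Their log2 difference within an array, HDAC1 minus HDAC3, was 1.09, 1.04 and 1.13 in DMSO and 1.20, 1.12 and 1.03 in DT. In E it was 1.12, 0.92 and 1.37, and in DTE 0.94, 0.97 and 1.28. All 4 groups overlapped, and the wider scatter lay in the groups with entinostat. The difference changed by 0.00 with entinostat (exact stratified permutation test, two-sided, 6 against 6 arrays, p = 0.97) and by -0.02 with dabrafenib plus trametinib (p = 0.78). Over the 12 arrays the probe sets correlated with Pearson r = 0.868, which describes arrays that share treatments and scaling.

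HDAC4 probe set 16910020, the one annotated to the coding transcript, was measured at 6.39, 6.48 and 6.16 log2 units in DMSO and at 5.50, 5.63 and 5.45 in DT. It was 6.05, 6.21 and 6.30 in E and 5.20, 5.34 and 5.17 in DTE. All 6 arrays with dabrafenib and trametinib lay below all 6 without, the DTE arrays lay below the DT arrays, and E overlapped DMSO. Such separation was common: 29.1% of all probe sets had DT wholly below DMSO, and 30.4% had DTE wholly below E. Means and SDs were 6.34 ± 0.17 in DMSO, 6.19 ± 0.13 in E, 5.53 ± 0.10 in DT and 5.24 ± 0.09 in DTE (n = 3 each), at the 74.2nd percentile of mean intensity. In bulk samples, fewer cells with the transcript and less of it per cell cannot be told apart.

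The fall in DT was 1.76-fold (log2 change -0.81, SE 0.12, adjusted p = 0.000136), and only 3.70% of all probe sets had a lower change. In DTE it was 2.15-fold (log2 change -1.10, SE 0.12, adjusted p = 4.61e-06), where 24.2% of probe sets were called, 16.5% lower and 7.64% higher. Adding dabrafenib and trametinib to entinostat gave a 1.93-fold fall (log2 change -0.95, SE 0.12, adjusted p = 4.57e-05), in a comparison with 17.9% called and 16.2% lower. Both falls against DMSO held after centring, at -0.67 and -1.09, where 10.4% and 17.2% of all probe sets were called lower. They also held after quantile normalization, at -0.49 and -0.93 (adjusted p = 0.00323 and 8.71e-06), where 5.84% and 10.2% were. The main effect of dabrafenib and trametinib was -0.88 (SE 0.09, adjusted p = 7.53e-07), and it was -0.71 after centring and -0.59 after quantile normalization, beside 13% and 7.56% of probe sets called lower.

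Entinostat moved this probe set less. Its change was -0.16 in E against DMSO, with a 95% interval of -0.41 to 0.10 (adjusted p = 0.508), where 12.2% of all probe sets were called. After centring it was -0.35 and called (adjusted p = 0.0283, with 11.3% of probe sets called lower), and after quantile normalization -0.25 (adjusted p = 0.122). DTE stood 0.29 below DT as deposited, a log2 change of -0.29 (SE 0.12, adjusted p = 0.141) with groups that did not overlap, as for 8.99% of all probe sets in that direction; it was -0.42 after centring (adjusted p = 0.00874) and -0.44 after quantile normalization (adjusted p = 0.00537), where 8.52% and 8.65% were called lower. The entinostat main effect of -0.22 (SE 0.09, adjusted p = 0.0813) became -0.38 and -0.34 under those scalings (adjusted p = 0.000797 and 0.00186), where 17.9% and 12% were called lower. It was also called without DMSO replicate 3 (-0.27, adjusted p = 0.0410).

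HDAC4 probe set 16910074, annotated to the non-coding transcript, was measured at 5.45, 5.45 and 5.03 log2 units in DMSO and at 5.58, 5.71 and 5.73 in DT. It was 4.22, 4.34 and 3.65 in E and 3.76, 3.86 and 4.20 in DTE. All 6 arrays with entinostat lay below all 6 without it, DT lay above DMSO, and E and DTE overlapped. For comparison, 8.35% of all probe sets had E wholly below DMSO, and 8.99% had DTE wholly below DT. Means and SDs were 5.67 ± 0.08 in DT, 5.31 ± 0.24 in DMSO, 4.07 ± 0.37 in E and 3.94 ± 0.23 in DTE (n = 3 each). Its mean lay at the 61.5th percentile of all probe sets; in the entinostat groups its level was near the median probe set, 3.84, and no measure of background was used here.

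The fall in E was 2.36-fold (log2 change -1.24, SE 0.17, adjusted p = 0.000106), in a comparison where 9.57% of probe sets were called higher and 2.6% lower. Only 0.0306% of all probe sets had a lower change in E. In DTE the fall was 2.58-fold against DMSO (log2 change -1.37, SE 0.17, adjusted p = 1.89e-05) and 3.32-fold against DT (log2 change -1.73, SE 0.17, adjusted p = 2.38e-06), the latter where 3.68% of probe sets were called lower. The entinostat main effect was -1.48 (SE 0.12, adjusted p = 1.19e-07), with 0.0136% of probe sets lower. Scaling moved it little, to -1.64 after centring and -1.65 after quantile normalization.

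With dabrafenib plus trametinib alone the same probe set stood 0.36 above DMSO (SE 0.17, adjusted p = 0.167), and the groups did not overlap, as for 5% of all probe sets in that direction. This rise was called after centring (0.51, adjusted p = 0.0477) and after quantile normalization (0.62, adjusted p = 0.0210), where 4.51% and 6.18% of probe sets were called higher. Added to entinostat, the pair of drugs gave -0.13 with a 95% interval of -0.50 to 0.23 (adjusted p = 0.649), and 0.07 under both other scalings. On the log2 scale, DTE minus what DT and E would add up to was -0.50 (SE 0.25, adjusted p = 0.508), and 0.01, 0.12 and -0.13 for HDAC1, HDAC3 and probe set 16910020. None of these 4 values was called by limma (0 of them at an unadjusted p under 0.05, the lowest being 0.0598), where 0.816% of all probe sets were.

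**Figure D2:**
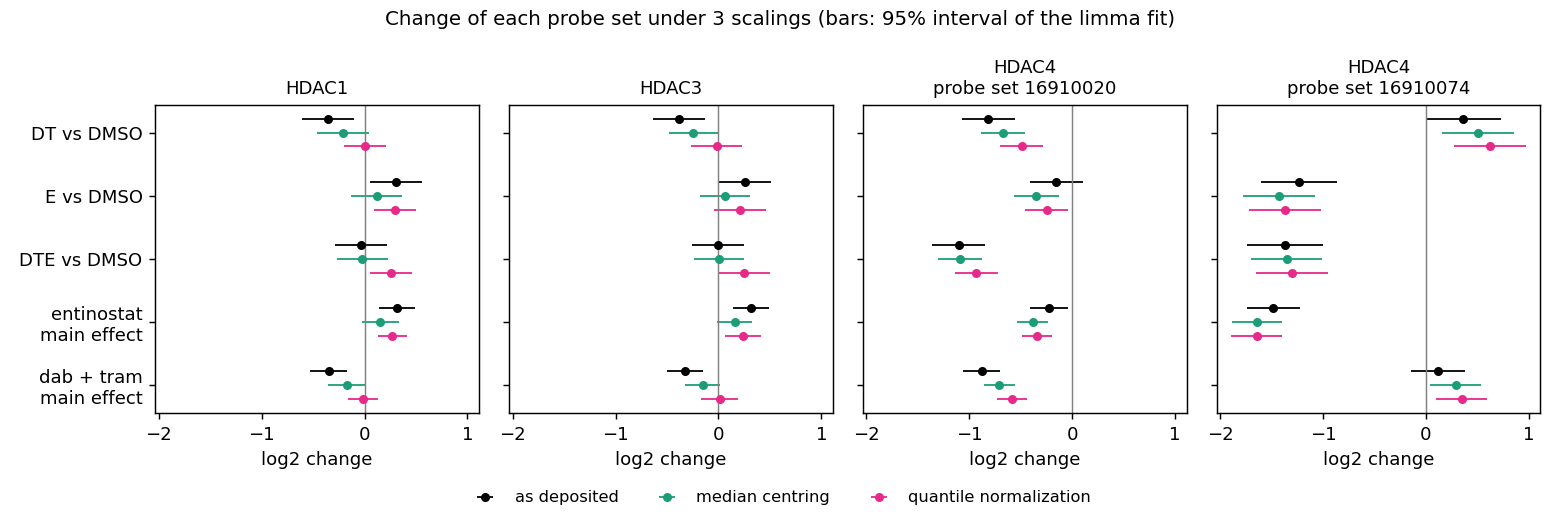
Log2 change (points) with the 95% interval of the limma fit (bars) for the 4 member probe sets in DT, E and DTE against DMSO and in both main effects, under 3 scalings of the arrays. For HDAC1 and HDAC3 the fall with dabrafenib plus trametinib shrinks to about 0 after quantile normalization (HDAC1 turns from -0.36 to 0.00 in DT), whereas the fall of HDAC4 probe set 16910020 in DT and DTE and that of 16910074 in E and DTE keep their side of 0 under all 3.

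The HDAC4 probe sets were set against each other within each array, which removes any scaling that shifts a whole array. The log2 difference, 16910020 minus 16910074, was 0.94, 1.04 and 1.12 in DMSO and -0.08, -0.08 and -0.28 in DT. It was 1.82, 1.87 and 2.64 in E and 1.44, 1.49 and 0.96 in DTE. DT lay below every other array and E above every other array, while DTE overlapped DMSO. The mean changed by -1.18 in DT, by 1.08 in E and by 0.26 in DTE against DMSO. These probe sets were both reported because they were already known to differ, so their difference is given as a description with no test.

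Over 6 against 6 arrays the difference was 1.26 higher with entinostat, and with dabrafenib plus trametinib it changed by -0.997. Leaving out each array in turn gave 1.13 to 1.34 and -1.07 to -0.86. After quantile normalization the changes were 1.30 and -0.93. The difference can show only that the probe sets changed unequally, not which of them was stable.

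Against HDAC1 and HDAC3 the HDAC4 probe sets also moved unequally. As within-array log2 changes, HDAC1 gained 0.54 on probe set 16910020 with entinostat and 0.53 with dabrafenib plus trametinib. Probe set 16910020 changed by -0.54 and -0.56 against HDAC3. HDAC1 gained 1.80 on probe set 16910074 with entinostat, and probe set 16910074 changed by -1.80 against HDAC3. With dabrafenib plus trametinib the same pairs changed by -0.46 and 0.44. The HDAC4 probe sets were already known to differ, so both could not have moved alike with HDAC1 or HDAC3. These values are therefore given as a description with no test.

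**Figure D3:**
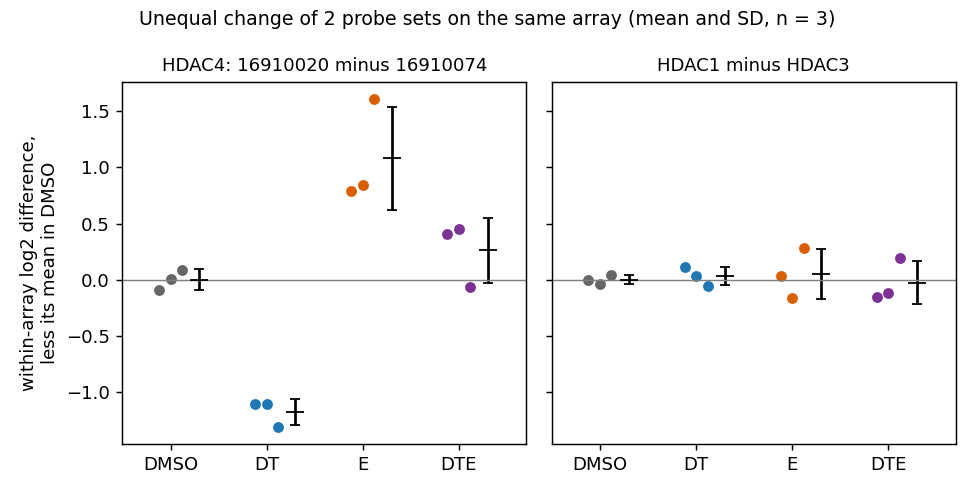
Log2 difference of 2 probe sets on the same array, less its mean in DMSO, for HDAC4 probe set 16910020 minus 16910074 (left) and HDAC1 minus HDAC3 (right); points are arrays and bars the mean and SD (n = 3). The mean of the HDAC4 pair changes by -1.18 in DT and by 1.08 in E, whereas the HDAC1 and HDAC3 pair stays within the scatter of all 4 groups.

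The HDAC4 gene also contains microRNA genes, and those measured on the array were added after the data were seen, chosen by their RefSeq coordinates inside the gene. MIR4440 (chr2:239068817-239068914) and MIR4441 (chr2:239085827-239085926) lie on the minus strand like HDAC4, 332.784 and 315.773 kb from its outermost start. MIR2467 (chr2:239351724-239351804) is on the same strand, 49.885 kb from the start, and MIR4269 (chr2:239305462-239305545) is on the plus strand, 96.146 kb from it. The 3 long non-coding RNA genes HDAC4-AS1, HDAC4-AS2 and LOC124908009 were not analysed here. The hairpins whose signals moved are shown in RefSeq's sequence, with the mature microRNA in capitals.
MIR4440: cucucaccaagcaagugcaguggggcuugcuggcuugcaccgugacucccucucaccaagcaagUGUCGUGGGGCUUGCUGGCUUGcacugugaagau
MIR4441: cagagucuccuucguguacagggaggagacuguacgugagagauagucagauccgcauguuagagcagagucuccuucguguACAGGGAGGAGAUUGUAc

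MIR4440 was 7.03, 7.45 and 6.57 log2 units in DMSO, 6.42, 6.83 and 6.01 in DT, 7.09, 6.69 and 6.95 in E and 5.66, 5.67 and 6.11 in DTE. DTE lay below DMSO and below E without overlap, as for 23.8% and 30.4% of all probe sets, while DT overlapped DMSO. It fell in DTE (log2 change -1.21, SE 0.22, adjusted p = 0.000546), and the change in DT was -0.60 (adjusted p = 0.0636). MIR4441 was 5.01, 5.49 and 4.74 in DMSO, 4.06, 4.20 and 4.26 in DT, 4.25, 4.93 and 4.57 in E and 2.73, 4.20 and 3.86 in DTE. Its DT and DTE arrays lay below DMSO, as for 29.1% and 23.8% of all probe sets. MIR4441 fell in DT (-0.91, SE 0.28, adjusted p = 0.0291) and in DTE (-1.48, SE 0.28, adjusted p = 0.000821). Its DTE arrays were widely spread (SD 0.77), with replicate 1, at 2.73, near the lower quartile of all probe sets, 2.52. DTE against DT was not called for MIR4441 (-0.58, adjusted p = 0.217). In DT the MIR4441 call ended after centring (-0.76, adjusted p = 0.0633) and quantile normalization (-0.69, adjusted p = 0.136), and both DTE calls held.

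The main effect of dabrafenib and trametinib was -0.85 for MIR4440 (SE 0.15, adjusted p = 0.000454) and -0.95 for MIR4441 (SE 0.20, adjusted p = 0.00145), beside -0.88 for HDAC4 probe set 16910020. After quantile normalization these were -0.52 and -0.74 (adjusted p = 0.0134 and 0.0169), beside -0.59. Such calls were common: 28.7% of all probe sets were called lower as deposited and 7.56% after quantile normalization. The entinostat main effects were -0.36 and -0.53 (adjusted p = 0.120 and 0.0681), beside -1.48 for probe set 16910074. Both hairpins were called after centring (-0.52 and -0.70, adjusted p = 0.00977 and 0.0105) and quantile normalization (-0.46 and -0.71, adjusted p = 0.0195 and 0.0154). Under those scalings 17.9% and 12% of all probe sets were called lower. MIR2467, near the outermost start, changed by -0.10 with dabrafenib plus trametinib and -0.08 with entinostat (adjusted p = 0.494 and 0.670). MIR4269, on the opposite strand and close to the lower quartile of intensity, changed by -0.50 and 0.13 (adjusted p = 0.0945 and 0.763). Whether an array signal at a hairpin reads the microRNA or the transcript around it was not tested.

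**Figure D4:**
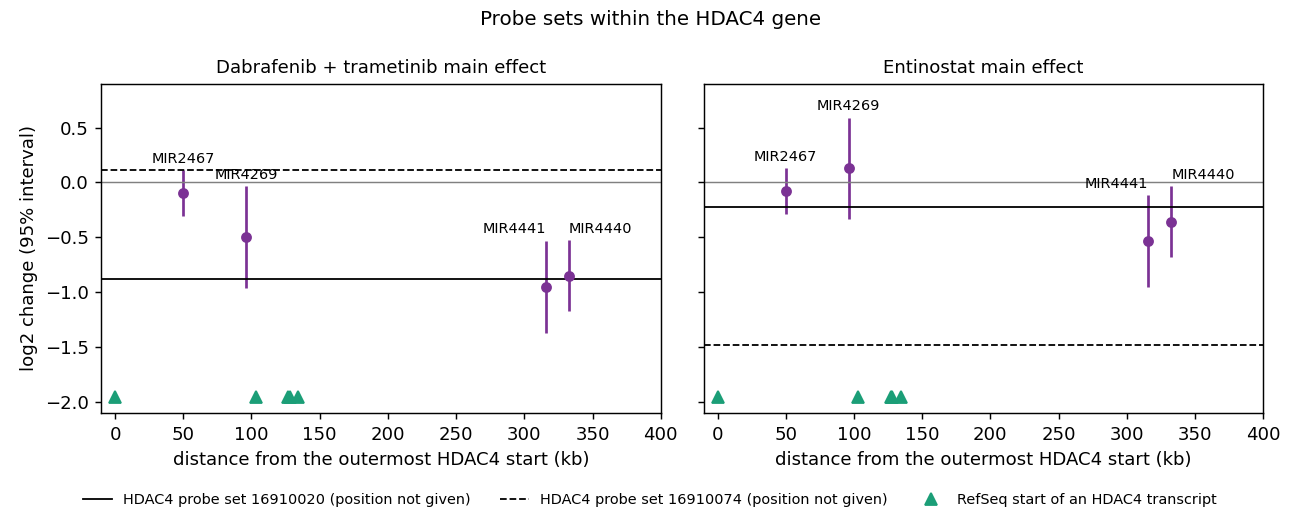
Log2 main effect (points) with its 95% interval (bars) of 4 microRNA probe sets against their distance from the outermost HDAC4 start; lines mark the effects of the HDAC4 probe sets, whose positions are not given, and triangles the RefSeq starts. MIR4440 and MIR4441, the pair farthest from that start, lie near the -0.88 of probe set 16910020 in the dabrafenib and trametinib panel, and no hairpin lies near the -1.48 of probe set 16910074 in the entinostat panel.

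The likeness of other genes to each member was taken as the Pearson r of log2 intensity over the 12 arrays, among about 11060 probe sets with a gene symbol and a mean above the lower quartile. HDAC1 was most like PLIN2 (r = 0.989), TBCCD1 (0.970) and PDP1 (0.967). In E these stood at 0.34, 0.34 and 0.53 above DMSO, and in DT at -0.29, -0.50 and -0.46. HDAC3 was most like SNAI1 (0.962), HK1 (0.953) and LRIG1 (0.949), which changed by -1.28, -0.67 and -0.62 in DT. After quantile normalization these changes were -0.95, -0.30 and -0.29. The genes were picked by likeness over the same arrays, on which HDAC3 was lowest in DT. Their changes are therefore given as a description with no test. SNAI1 encodes a zinc-finger repressor and HK1 a hexokinase.

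HDAC4 probe set 16910020 was most like IFRD2 (r = 0.989), ARHGEF11 (0.984) and CAPN15 (0.984), which changed by -0.70, -1.03 and -0.79 in DT and by -1.01, -1.18 and -1.02 in DTE. Probe set 16910074 was most like CHD3 (0.971), LINC00847 (0.968) and ZNF362 (0.966), which changed by -0.68, -0.47 and -0.75 in E and by -0.85, -0.65 and -0.80 in DTE. CHD3 encodes an ATP-dependent remodeller of the NuRD complex. The number of probe sets with r of at least 0.9 was 515 for 16910020, 263 for HDAC1, 138 for HDAC3 and 31 for 16910074. These r values describe arrays that share treatments and scaling.

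The other 15 histone deacetylase and sirtuin genes on the array were also measured. Among class I enzymes, HDAC2 rose in E (log2 change 0.56, SE 0.15, adjusted p = 0.0215), and HDAC8 did not pass in any of the comparisons with DMSO (0.22 in E, adjusted p = 0.500). HDAC2, like HDAC1 a NuRD, SIN3 and CoREST subunit, was 5.44, 5.68 and 5.24 in DMSO and 5.80, 6.21 and 6.03 in E, with no overlap, as for 19.7% of all probe sets in that direction. Its rise in E was 0.37 after centring (adjusted p = 0.0629) and 0.41 after quantile normalization (adjusted p = 0.0299, with 7.17% called higher). The class I list of 4 had 2 members lower in DT, HDAC1 and HDAC3, and none after centring or quantile normalization; of all probe sets 17.8%, 10.4% and 5.84% were called lower.

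Of the remaining class IIa genes, HDAC5 rose in all 3 treatments and HDAC7 fell in DT and DTE. HDAC5 was 5.40, 5.72 and 5.36 in DMSO, 5.86, 6.37 and 6.22 in DT, 6.31, 6.07 and 6.41 in E and 6.44, 6.45 and 6.26 in DTE, so every treated array was above DMSO. DT, E and DTE lay wholly above DMSO for 5%, 19.7% and 11.1% of all probe sets. HDAC5 rose by 0.65, 0.77 and 0.89 in DT, E and DTE (adjusted p = 0.00441, 0.00185 and 0.000274). Beside this, 2.52%, 9.57% and 7.64% of all probe sets were called higher. HDAC7 fell by 0.61 in DT and by 0.65 in DTE, with log2 changes of -0.61 and -0.65 (adjusted p = 0.00224 and 0.000991), and stood at -0.15 in E (adjusted p = 0.541). After quantile normalization HDAC7 was -0.31 in DT (adjusted p = 0.0896) and -0.50 in DTE (adjusted p = 0.00412).

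HDAC9, the fourth class IIa gene, rose by 0.55 in E and by 0.76 in DTE (adjusted p = 0.0137 and 0.000648), with -0.10 in DT (adjusted p = 0.691); in E it was 0.36 after centring (adjusted p = 0.0645). The class IV gene HDAC11 rose by 0.59 in E (adjusted p = 0.0115), a call that ended at 0.40 after centring and 0.38 after quantile normalization (adjusted p = 0.0572 and 0.0798), and as deposited HDAC6 and HDAC10, of class IIb, passed in none of DT, E and DTE. Among the NAD-dependent sirtuins, SIRT2 rose by 0.46 in DT (adjusted p = 0.0209) and SIRT1 fell in DTE (log2 change -0.51, adjusted p = 0.0156), the latter not after quantile normalization (-0.27, adjusted p = 0.0861). SIRT3, SIRT4, SIRT5, SIRT6 and SIRT7 passed in none of the 3. As deposited, of these 18 genes with 19 probe sets, HDAC4 probe set 16910074 had the lowest entinostat main effect and HDAC4 probe set 16910020 the lowest dabrafenib and trametinib main effect.

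**Figure D5:**
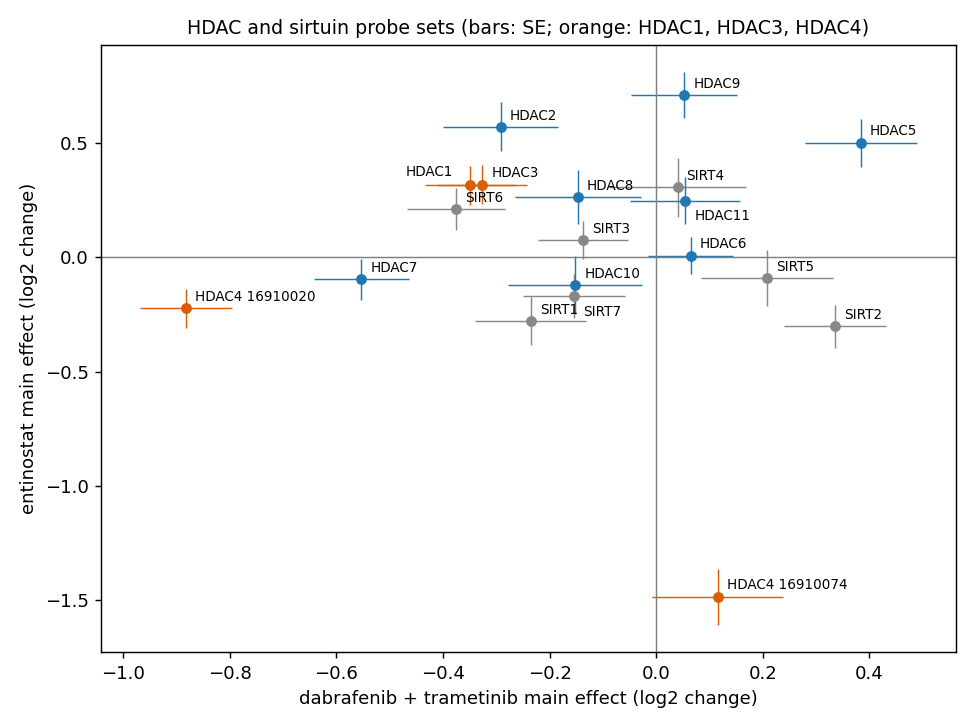
Entinostat main effect against dabrafenib and trametinib main effect (log2 changes as deposited, bars: SE) for the 19 probe sets of the histone deacetylase (blue, and orange for HDAC1, HDAC3 and HDAC4) and sirtuin (grey) genes. The HDAC4 probe sets lie at the far left, -0.88, and at the bottom, -1.48, while HDAC1 and HDAC3 lie side by side at -0.35 and -0.33 on the horizontal axis, values that centring reduced to -0.18 and -0.15 and quantile normalization to -0.02 and 0.01.

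Partner genes of the class I members were counted by complex, from lists of known subunits. Of 9 measured NuRD genes, 4 fell and 1 rose in DT (median -0.24), and 1 fell in E (median 0.04, and -0.15 after centring), beside medians of -0.13 and 0.06 over all probe sets. Of all probe sets 17.8% were called lower and 2.52% higher in DT, and 2.6% lower and 9.57% higher in E, shares against which the counts of the complexes below also stand. CHD3 went opposite ways, rising by 0.34 in DT (adjusted p = 0.0421) and falling in E (log2 change -0.68, adjusted p = 0.000518) and DTE (-0.85, adjusted p = 3.01e-05), under all 3 scalings. GATAD2A and MTA1 fell in DT (-0.69 and -0.60, adjusted p = 0.000250 and 0.00377), to -0.32 and -0.25 after quantile normalization, where neither was called. MTA2, MTA3 and MBD3 were not analysed here.

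In the SIN3 list, 4 of 6 measured genes fell in DT (median -0.39, beside 17.8% of all probe sets) and 1 in E (beside 2.6%), namely BRMS1, a metastasis suppressor that binds SIN3 (-0.63 in DT, -0.53 in E and -0.98 in DTE). After quantile normalization none of the 6 was called in DT, and BRMS1 stayed called in E (-0.60, adjusted p = 0.00286). In the CoREST list of 10, 4 rose in E beside 9.57% of all probe sets (median 0.21; after centring 2 rose and 2 fell, median 0.02) and 2 fell in DT (median -0.18, and 0.14 after quantile normalization), a share near the 17.8% of all probe sets. ZNF217, a zinc-finger partner of CoREST, rose by 0.97 in E (adjusted p = 0.000174) and fell in DT (-0.66, adjusted p = 0.00325), and the corepressor RCOR2 rose by 0.85 in E and by 0.94 in DTE, all 4 under every scaling. KDM1A, the lysine demethylase of the complex, rose by 0.48 in E (adjusted p = 0.0154), with 0.29 after centring (adjusted p = 0.0995). In DTE it rose by 0.44 (adjusted p = 0.0151), and the rise stayed called under both other scalings. It was 0.45 after centring and 0.74 after quantile normalization (adjusted p = 0.00851 and 3.29e-05).

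Around HDAC3, 2 of 4 measured NCoR complex genes fell in DT (median -0.47, beside 17.8% of all probe sets) and none passed in E (median 0.16, and -0.03 after centring). The fall was in TBL1X and TBL1XR1, WD40 subunits of these complexes (-1.17 and -0.71, adjusted p = 0.000206 and 0.00268), and TBL1X stayed called after quantile normalization (-0.89). Of 2 measured genes of MiDAC, TRERF1 fell in DT (-0.45, adjusted p = 0.0358) and rose by 0.51 as an entinostat main effect, and MIDEAS fell in DTE (-0.34, adjusted p = 0.0267). The TRERF1 fall ended after centring and quantile normalization (adjusted p = 0.112 and 0.588), and that of MIDEAS after quantile normalization (adjusted p = 0.310).

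Around HDAC4, 6 of 15 measured partners and regulators of class IIa enzymes fell in DT and 1 rose (median -0.34), beside 17.8% and 2.52% of all probe sets, while 1 rose and none fell in E (median 0.11, and -0.08 with 2 lower and none higher after centring). After quantile normalization 2 fell and 2 rose in DT (median 0.01), beside 5.84% and 6.18%. MEF2D, a transcription factor that class IIa enzymes repress, fell in DT (-0.95, adjusted p = 1.93e-05) and in DTE (-0.53, adjusted p = 0.00299), the former under all scalings and the latter not after quantile normalization (-0.23, adjusted p = 0.127). CAMK4, a calmodulin-dependent kinase, fell in DT (-0.88, adjusted p = 9.71e-05) and rose by 0.52 in E (adjusted p = 0.0109), which was 0.33 after centring (adjusted p = 0.0740). SIK1, a salt-inducible kinase, fell in DTE (-0.56, adjusted p = 0.00424), MEF2C rose there by 0.50 (adjusted p = 0.0236), and PRKD1, a protein kinase D, rose in DT by 0.50 (adjusted p = 0.0142).

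Histone acetyltransferases, the enzymes that oppose the HDACs, were also counted. Of 9 measured, 6 fell and none rose in E (median -0.42) and 6 fell in DTE (median -0.71), beside 2.6% and 16.5% of all probe sets called lower; 4 fell in DT (median -0.33), beside 17.8%. KAT6B and CREBBP fell most in E (-0.80 and -0.67, adjusted p = 0.000871 and 0.000657), and after centring and quantile normalization 8 and 7 of the 9 fell in E, the latter beside 5.81% of all probe sets. In DT 1 and 0 were lower, and 1 higher, under those scalings.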

How the data were processed

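RNA of 12 samples was measured on Affymetrix arrays. The deposited values are intensities on a linear scale, 1 table per array; per the submitters' processing notes they come from RMA and the Transcriptome Analysis Console. Whether they were scaled further is unknown: array medians differ by treatment, so as-deposited changes hold that drift. No source used here names the authors' genome build; coordinates and sequences are RefSeq's on GRCh38.p14. Intensities of all 29396 probe sets, 1.88 to 8728, were taken as log2 without further scaling. Of these probe sets 14748 have 1 gene symbol in the platform annotation and 14648 none. Group means over 12 arrays were fitted with limma 3.58.1 in R 4.3.3, with Benjamini-Hochberg adjustment over all probe sets per comparison, and the script was tested on simulated data. The number of arrays limits the precision. Median centring, quantile normalization, an offset of 16, probe set filters, trend and robust fitting, a replicate block and leaving out each array were alternatives. The within-array difference of HDAC1 and HDAC3 was tested by exact permutation. Members, gene lists and named genes were chosen with earlier results of these data known. Named genes were the members, the other HDAC and sirtuin genes, of each other list up to 2 called genes each way by size, and the 3 genes most like each member.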

Additional observations from a re-analysis of the deposited data

How the results depend on the processing

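Of 310 member results under other settings, 277 kept their side of the threshold, 15 gained a call, 16 lost one and 2 reversed. Reversed means a turn of sign with a call as deposited or under the other setting. A turn of sign with no call in either was counted among the 277. Of 480 with 1 array left out, 458 kept their side by the same rule, 4 gained a call and 18 lost one. Except where a value or the setting's construction shows it, the cause was not tested.

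After median centring the changes in DT were -0.21 for HDAC1, -0.24 for HDAC3 and 0.51 for HDAC4 probe set 16910074. The entinostat main effects were 0.15, 0.16 and, for probe set 16910020, -0.38, and the dabrafenib and trametinib main effects -0.18 and -0.15 for HDAC1 and HDAC3. Probe set 16910020 stood at -0.35 in E and -0.42 in DTE against DT, HDAC3 at 0.25 in DTE against DT and 0.31 in E against DT. The F statistics over the groups were 2.67 for HDAC1 and 2.87 for HDAC3, and 3002 probe sets were called in DTE against E, against 5253 as deposited.

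After quantile normalization HDAC1 in DT reversed to 0.00268 and the HDAC3 dabrafenib and trametinib main effect to 0.0108. The HDAC1 dabrafenib and trametinib main effect was -0.0178 there, and HDAC3 had -0.0184 in DT, 0.27 in DTE against DT, 0.23 in E against DT and F = 2.89. Probe set 16910020 had -0.44 in DTE against DT, 0.24 in E against DT and -0.34 as entinostat main effect, and probe set 16910074 had 0.62 in DT. The same main effect of dabrafenib and trametinib reversed for KDM1A (0.23), EP300 (0.00106), KAT6B (0.29) and KAT7 (0.0386). Calls numbered 3535 in DT against 5975 as deposited, 2701 in DTE against E, 4813 for the dabrafenib and trametinib main effect against 9311, and 438 for additivity against 240.

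Among probe sets with 1 gene symbol HDAC1 had -0.34 in DTE against E, now called, and calls over fewer probe sets numbered 2352 in E, 4707 in DTE, 2764 in DTE against DT, 5799 in E against DT, 3925 and 6022 for the main effects, 148 for additivity and 7167 for any difference. With 1 probe set per gene HDAC1 had -0.34, and the counts were 2341, 4690, 2756, 5770, 3899, 5991, 151 and 7146. With an offset of 16 HDAC1 was called at 0.29 in E, 0.30 in DTE against DT and -0.33 in DTE against E, and probe set 16910020 at -0.17 as entinostat main effect. Trend and robust fitting called HDAC1 at 0.32 in DTE against DT and -0.34 in DTE against E.

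With 1 array left out, HDAC1 ranged from -0.39 to -0.32 in DT, 0.24 to 0.41 in E and -0.44 to -0.28 in DTE against E. HDAC3 ranged from -0.43 to -0.32 in DT and 0.31 to 0.42 in DTE against DT, and the entinostat main effect of probe set 16910020 from -0.27 to -0.19. Counts ranged from 3842 (without DT replicate 1) to 6310 in DT, 3463 (without E replicate 3; 3499 without DTE replicate 1) to 5435 in DTE against E, and 149 to 223 for additivity. The lowest additivity counts came from leaving out E replicate 1 (149), DTE replicate 2 (150), DMSO replicate 1 (151), E replicate 3 (152) or DT replicate 3 (159).

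With the replicate number as a block no member call changed (HDAC1 in DT: -0.36, adjusted p = 0.0492 by limma), and calls in DT numbered 6397. Same-numbered arrays were alike only weakly: 2 of 18 such pairs correlated above 0.1, from -0.09 to 0.17. Yet 10 of 12 arrays correlated best with their own number, and whether the numbers pair the arrays was not tested.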
